A study of Homo sapiens with 24 samples.

Results

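PC9 is a human lung adenocarcinoma line whose growth depends on a mutant epidermal growth factor receptor (EGFR). The 12 PC9 libraries form a design of genotype by treatment: control cells (CTRL) or YAP1 knockout cells (YAP1 KO), each given the vehicle DMSO or a drug pair, called OT here, for 24 hours, with 3 libraries in each of the 4 groups. OT is osimertinib at 100 nM, an inhibitor of mutant EGFR, together with trametinib at 30 nM, an inhibitor of the kinase MEK. What is described here is how genotype and treatment interact: the response to OT in YAP1 KO cells less the response in CTRL cells, gene by gene, called the interaction. It asks for which genes the loss of YAP1 changed the response to the drugs, and not which genes differed with YAP1 or with the drugs alone. It was computed on log2(FPKM + 1), where FPKM is fragments per kilobase of transcript, scaled to the mapped fragments of the library. Of the 25365 gene rows, 12685 entered it, those with at least 1 FPKM in at least 3 of the 12 libraries. The other 12 of the series' 24 libraries, from the line HCC4006, serve for comparison only. All groups came from dishes plated in triplicate, so p-values measure the spread between dishes. The sources used here do not give whether the KO cells were 1 clone or a pool, so an effect of YAP1 loss and another difference of that cell population cannot be told apart.

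YAP1 is the coactivator that the Hippo kinase cascade restrains. It binds TEAD factors on DNA and, when not held in the cytoplasm by the LATS kinases, raises genes of adhesion, matrix and growth such as CTGF and CYR61. EGFR drives the MEK and ERK kinases, which keep genes such as DUSP6, CCND1 and the replication genes on and keep the death protein BIM, product of BCL2L11, low. Activity of YAP1 with TEAD is known as a way in which EGFR-mutant cells outlast EGFR and MEK inhibition, in a slowly cycling state, and BMF, a BH3-only death protein, is known as a gene repressed by YAP1 in that state.

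Promoter sequence is shown for 5 genes with lower interactions, picked among those that hold a match: CTGF and THBS1 of the YAP/TEAD target list, DKK1 of the WNT list, GINS2 of the replication list, and CDCA7, which is in none of the lists. Each run is the 250 bases before the RefSeq transcription start of build GRCh38.p14, 5′ to 3′ on the gene's strand. In the first 3, from genes whose OT response fell or turned round in YAP1 KO cells, capitals mark GGAATG, the core letters bound by TEAD factors. CTGF, listed in RefSeq as CCN2, holds it 3 times, with first bases 169, 104 and 95 bases before the start (chr6:131951373-131951622, minus strand). DKK1 has 1 match (chr10:52314031-52314280, plus strand), and so has THBS1 (chr15:39580829-39581078, plus strand). The last 2, GINS2 (chr16:85688955-85689204, minus strand) and CDCA7 (chr2:173354622-173354871, plus strand), are genes whose fall under OT was deeper in YAP1 KO cells. There the capitals mark TTTCCCGC, read on the other strand, 1 of 4 E2F letter strings searched.
CTGF: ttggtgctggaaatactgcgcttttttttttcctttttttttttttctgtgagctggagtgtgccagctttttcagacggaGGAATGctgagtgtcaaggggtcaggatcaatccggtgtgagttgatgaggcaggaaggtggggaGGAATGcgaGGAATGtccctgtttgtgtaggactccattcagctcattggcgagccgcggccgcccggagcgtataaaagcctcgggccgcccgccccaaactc
DKK1: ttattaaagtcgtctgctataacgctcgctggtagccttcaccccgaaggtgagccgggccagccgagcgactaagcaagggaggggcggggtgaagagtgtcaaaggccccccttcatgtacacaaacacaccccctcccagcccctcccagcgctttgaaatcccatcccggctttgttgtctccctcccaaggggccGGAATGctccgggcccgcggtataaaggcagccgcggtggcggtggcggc
THBS1: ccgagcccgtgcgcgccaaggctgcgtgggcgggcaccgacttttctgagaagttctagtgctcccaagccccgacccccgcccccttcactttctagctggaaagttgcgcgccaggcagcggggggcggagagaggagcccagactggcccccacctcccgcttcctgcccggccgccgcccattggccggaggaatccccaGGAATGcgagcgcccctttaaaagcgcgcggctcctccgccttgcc
GINS2: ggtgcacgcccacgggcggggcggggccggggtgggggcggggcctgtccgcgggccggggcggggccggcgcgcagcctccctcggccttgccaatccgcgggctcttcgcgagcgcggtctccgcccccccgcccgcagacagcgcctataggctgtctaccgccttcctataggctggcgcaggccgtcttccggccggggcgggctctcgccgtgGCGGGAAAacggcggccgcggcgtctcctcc
CDCA7: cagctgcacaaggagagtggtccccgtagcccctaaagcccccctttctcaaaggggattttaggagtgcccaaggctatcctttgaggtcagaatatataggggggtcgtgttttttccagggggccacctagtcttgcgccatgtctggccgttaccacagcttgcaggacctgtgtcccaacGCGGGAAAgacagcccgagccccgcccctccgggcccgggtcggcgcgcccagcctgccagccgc

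On either strand, GGAATG was found in 7 of 21 YAP/TEAD target promoters present in the table (33.3%), and in 11.9% of all 27305. It was not particular to that list. Shares in other lists ran from 0%, as in pro-apoptotic BCL2 family genes, to 40% in mucin and secretory genes (4 of 10), where higher interactions outnumbered lower ones. The 4 E2F strings TTTGGCGC, TTTCCCGC, TTTGCCGC and TTTCGCGC, which differ in the middle letters, were found in 16 of 39 replication gene promoters (41%), and in 2.79% of all. These strings were searched after the expression results were seen. Strings of AP-1, SREBP and SNAI transcription factors were searched too, and their shares are not described here. A match is a description of letters, not of a bound site. EDN1, a YAP/TEAD target with a larger interaction than THBS1, had no GGAATG in this window, and CDC6 and RRM2 had none of the E2F strings, which says nothing of the factors. CYR61 had no entry in the table.

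The libraries carried the RNA of an epithelial line. As they are bulk libraries, fewer cells of a kind and less RNA per cell cannot be told apart. Of 12 lung adenocarcinoma and airway markers, 8 were at 1 FPKM or more in all 12 libraries, EPCAM among them at 263 to 374.7, while NKX2-1, NAPSA, SFTPB and SFTPC stayed below 1 in all of them. The summed level of 10 fibroblast markers was 1.42 to 2.75 FPKM, with 9 below 1 and 2 at 0 throughout. That of 8 immune markers was 29.7 to 40.2, nearly all CD68, and the endothelial and neuroendocrine sums did not pass 1.16 and 0.814. FPKM summed to 566982 to 620813 per library. The share of the sum in the MIR1244 rows was 5.26% to 7% under DMSO and 2.43% to 3.63% under OT, which scales all other genes of a library a little. Its part in the results was not tested, and results are also given under 2 other scalings.

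The gene checked first was YAP1 itself. Its level was 43.3, 42.5 and 42.9 FPKM in CTRL DMSO, 33.8, 34.2 and 34.5 in CTRL OT, 12.2, 12.4 and 11.6 in KO DMSO and 11.6, 10.1 and 11.3 in KO OT libraries. All 6 KO libraries lay below all 6 CTRL libraries, and the mean of KO cells was 28.1% of CTRL under DMSO and 32.2% under OT. Transcript remaining in knockout cells is no measure of protein. The interaction of YAP1 was 0.20 (SE 0.065, limma adjusted p = 0.0425). That call was lost without any 1 of 10 of the 12 libraries, at adjusted p up to 0.0962, and held only without KO DMSO replicate 2 or KO OT replicate 2.

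At a Benjamini-Hochberg adjusted p under 0.05 from limma, 1673 genes had a higher interaction (13.2% of those tested) and 1750 a lower one (13.8%), 3423 in all (27%). These interactions were mostly small. The middle 90% ran from -0.43 to 0.43 on the log2 scale, against a median SE of 0.0817, and 339 higher and 398 lower genes passed the test with a size of 0.5 or more. At least 2-fold, the counts were 35 higher (0.276%) and 54 lower (0.426%), of which 2 and 3 were rows of short RNAs, a class with a median residual SD of 1.75 against 0.0693 for other rows. Of all calls, 48.9% were higher. With median-of-ratios scaling that share was 39.5% (1385 higher, 2122 lower), and with libraries rescaled to the same sum 60.6% (2114 higher, 1377 lower), so the balance of directions rests on the scaling.

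The OT response was wider in YAP1 KO cells. The SD of the response over genes was 0.744 in YAP1 KO cells and 0.609 in CTRL cells. With OT, 416 genes rose at least 2-fold in CTRL cells (3.28%) and 742 in KO cells (5.85%), while 583 fell (4.6%) and 993 fell (7.83%). Both responses enter the interaction, so these counts describe it and are no further support.

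An interaction can arise in several ways, which the genotype difference in each treatment tells apart. Among the 1750 lower genes, 761 (43.5%) did not pass the test between genotypes under DMSO and were lower in KO cells under OT. Another 361 were lower in both treatments. In 193 (11%) the genotypes crossed, KO being higher under DMSO and lower under OT, and in 300 KO was higher under DMSO with no call under OT. Among the 1673 higher genes, 783 (46.8%) had a call only under OT, 272 (16.3%) were lower in KO cells under DMSO with no call under OT, and 197 crossed. The largest named genes of each kind stand apart in the plot of the genotype difference under DMSO against that under OT.

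**Figure D1:**
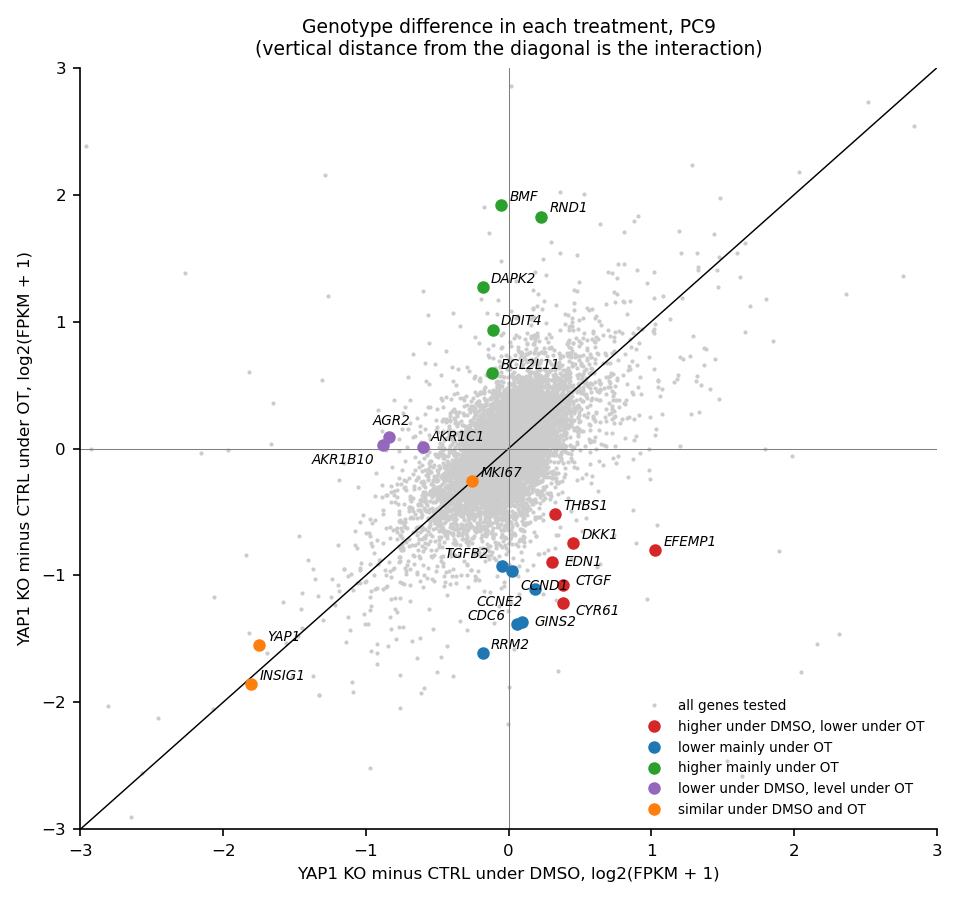
YAP1 KO minus CTRL under DMSO (x axis) and under OT (y axis) for the genes tested, both as differences of log2(FPKM + 1) means of 3 libraries, with 27 genes outside the axes. Vertical distance from the diagonal is the interaction: BMF lies 1.97 above it, CYR61 1.60 below it, and INSIG1 on it.

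Many YAP/TEAD targets crossed. OT raised most of these genes in CTRL cells, and in YAP1 KO cells fewer rose and more fell. Of the 28 listed genes, all tested, 16 had a lower interaction (57.1%, against 13.8% of all genes). A higher one was found in 2 (7.14%, against 13.2%). The median was -0.44 against 0.01 over all genes. With OT, 21 rose in CTRL cells (32% of all genes did) and 13 in KO cells (36.9%), while 6 fell in CTRL (40.9%) and 10 in KO cells (41.4%), with median responses of 0.61 and 0.09. Under DMSO 12 of the genes were higher in KO cells (19.8% of all genes) and 9 lower (20%). Under OT 1 was higher (28.5%) and 22 were lower (25.2%). Of the 16 lower interactions, 9 crossed, 56.2% against 11% of lower interactions over all genes. The list was chosen with earlier results of these data known.

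CTGF, a secreted matricellular protein and the usual readout of YAP1 activity, was at 8.47, 9.31 and 8.86 FPKM in CTRL DMSO and 20.5, 20.1 and 15.6 in CTRL OT libraries. In YAP1 KO cells it was at 11.5, 11 and 13.2 under DMSO and 8.26, 8.6 and 8.08 under OT. Every KO library was above every CTRL library under DMSO and below every one under OT. OT raised CTGF by 0.99 on the log2 scale in CTRL cells and lowered it in KO cells (-0.47), an interaction of -1.46 (SE 0.128, limma adjusted p = 9.53e-06). CYR61, its close relative, had 56.3, 54.7 and 58.4 FPKM in CTRL DMSO, 96.9, 91.5 and 80.4 in CTRL OT, 71.4, 74.5 and 75.8 in KO DMSO and 37.7, 40.0 and 36.1 in KO OT libraries. The groups crossed in the same way without overlap, and the interaction was -1.60 (SE 0.085, adjusted p = 2.87e-07).

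EDN1, the vasoconstrictor endothelin, crossed at lower levels. It went from 3.6, 3.13 and 3.55 to 5.62, 4.99 and 4.51 FPKM in CTRL cells and from 4.37, 4.07 and 4.99 to 2.13, 2.63 and 2 in KO cells (interaction -1.20, adjusted p = 4.36e-05). DKK1, a secreted WNT inhibitor held in the WNT list, rose from 126, 119 and 133 to 195, 191 and 188 FPKM in CTRL cells and fell from 167, 174 and 176 to 118, 113 and 111 in KO cells (interaction -1.19, adjusted p = 1.08e-07). In DKK1 and EDN1, as in CTGF, no library of one genotype reached the other in either treatment. THBS1, a matricellular protein, went from 66.6, 65.7 and 66.4 to 76.2, 70.8 and 67.4 FPKM in CTRL and from 82, 82.1 and 85.6 to 51.4, 47.9 and 49.9 in KO cells (interaction -0.84, adjusted p = 2.10e-06). EFEMP1, a matrix glycoprotein, crossed with a larger interaction still. OT lowered it in both genotypes, from 31.8, 28.8 and 31.3 to 22.3, 23.9 and 24.4 FPKM in CTRL and from 65.7, 62 and 62.5 to 14.1, 13.8 and 11.5 in KO cells (interaction -1.82, adjusted p = 2.34e-07).

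TGFB2, a ligand of the TGF-beta receptors, rose in CTRL cells, and its response in KO cells did not pass the test (adjusted p = 0.195). CTRL libraries went from 13, 13 and 13.8 FPKM under DMSO to 27.8, 25.9 and 27.1 under OT, while KO libraries had 12.8, 12.4 and 13.4 under DMSO and 15.1, 12.6 and 13.5 under OT. The genotypes overlapped under DMSO and were apart under OT (interaction -0.88, SE 0.082, adjusted p = 1.31e-05). The list was not uniform. AMOTL2, a Hippo feedback gene, was lower in KO cells by similar amounts in both treatments (-0.49 and -0.60) and its interaction of -0.11 did not pass the test (adjusted p = 0.237). ANKRD1, a cardiac ankyrin repeat protein, fell with OT in both genotypes from 4.74, 5.05 and 5.49 FPKM in CTRL and 6.79, 7.25 and 8.04 in KO cells to 0.689 or less in all 6 OT libraries. The genotypes overlapped under OT, and its interaction of -0.60 (adjusted p = 0.00657) did not pass at a pseudocount of 0.01 (adjusted p = 0.0654).

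In the list of YAP1, its paralog, and TEAD and VGLL factors, 4 of 9 had a higher interaction and 1 a lower one, and YAP1 itself, whose call rests on few libraries, is 1 of the 4. The lower was TEAD4 (-0.35), which went from 27.9, 25.9 and 28.9 to 19.7, 18.2 and 18.9 FPKM in CTRL and from 23, 22.4 and 22.2 to 12, 11.8 and 12 in KO cells. TEAD2, TEAD3 and VGLL1, a TEAD cofactor, were the other higher ones (0.33, 0.31 and 0.37). WWTR1, which encodes the YAP1 paralog TAZ, was at 16.7, 16.5 and 17.6 FPKM in CTRL OT and 17.7, 15.7 and 16.5 in KO OT libraries, and its interaction of -0.14 did not pass the test (adjusted p = 0.112). Of 25 Hippo regulators tested, 6 had a lower interaction (24%, against 13.8% of all genes) and 3 a higher one (12%, against 13.2%). Their median of -0.02 changed sign with the scaling. WWC1, the scaffold KIBRA that activates LATS, was the largest: OT took it from 13.8, 15.1 and 14.5 to 35, 30.5 and 30.4 FPKM in CTRL cells, but from 10.5, 10.3 and 10.1 to 14.2, 14.4 and 15 in KO cells (interaction -0.63, adjusted p = 7.60e-05).

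**Figure D2:**
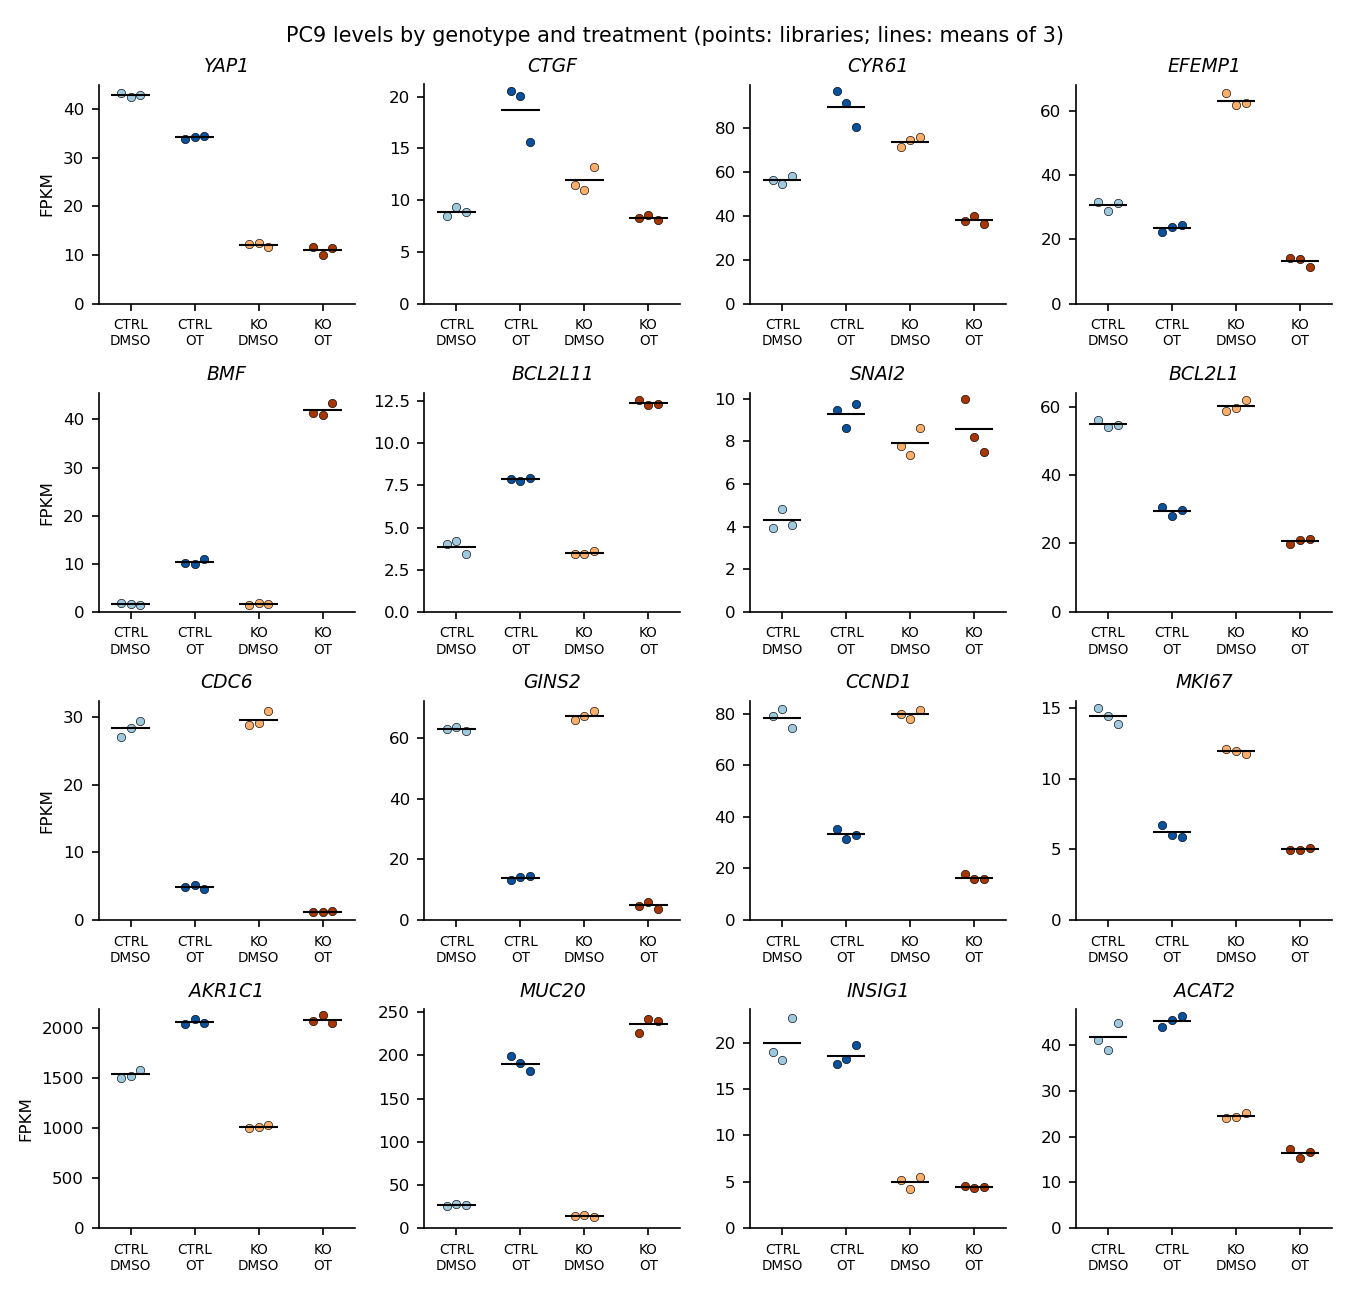
FPKM (y axis, from 0) of 16 genes in the 12 PC9 libraries, by genotype and treatment, with points for libraries and lines for means of 3. CTGF and CYR61 cross between treatments, BMF is at 40.9 to 43.4 in KO OT libraries and at 11 or less elsewhere, and INSIG1 is low in KO cells in both treatments.

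Several BH3-only death genes differed between genotypes under OT and not under DMSO. BMF had the largest higher interaction of the named genes after the low row PTCD1. It was at 1.82, 1.68 and 1.51 FPKM in CTRL DMSO and 1.33, 1.79 and 1.63 in KO DMSO libraries, and the genotypes overlapped (adjusted p = 0.588 between them). Under OT it was at 10.1, 10.0 and 11 in CTRL and 41.4, 40.9 and 43.4 in KO libraries. The ratio of OT to DMSO means was 6.2 in CTRL and 26.5 in KO cells, and the interaction was 1.97 (SE 0.097, limma adjusted p = 1.91e-07). Of 10 pro-apoptotic BCL2 family genes tested, 4 had a higher interaction (40%, against 13.2% of all genes) and 1 a lower one (10%, against 13.8%). All 4 passed the test between genotypes under OT but not under DMSO. So did 783 of the 1673 higher genes over all genes (46.8%).

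BCL2L11, which encodes BIM, was at 7.88, 7.76 and 7.96 FPKM in CTRL OT and 12.5, 12.3 and 12.3 in KO OT libraries, from 4, 4.17 and 3.43 in CTRL and 3.43, 3.46 and 3.59 in KO libraries under DMSO (interaction 0.71, SE 0.075, adjusted p = 3.90e-05). The genotypes were apart under OT alone. PMAIP1, the BH3-only protein NOXA, was raised by OT in KO cells (0.60), while its CTRL response was -0.13, with 4.78, 5.55 and 6.23 FPKM in CTRL OT and 11.5, 10.5 and 11.1 in KO OT libraries (interaction 0.73, adjusted p = 0.00272). BBC3, the BH3-only protein PUMA, had an interaction of 0.48 (adjusted p = 0.0214), which was lost, at adjusted p up to 0.0527, without KO DMSO replicate 1, KO OT replicate 2 or KO OT replicate 3. BID, named after its values were seen, was the lower one (-0.31, adjusted p = 0.00147).

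Of 8 survival genes tested, 1 had a higher interaction (12.5%, against 13.2% of all genes) and 2 a lower one (25%, against 13.8%). Their median of -0.01 changed sign with the scaling. BCL2L1, which encodes BCL-XL, fell from 56.1, 54.1 and 54.6 to 30.8, 28 and 29.9 FPKM in CTRL cells and from 58.9, 59.6 and 62 to 19.9, 21.1 and 21.3 in KO cells (interaction -0.62, SE 0.055, adjusted p = 1.02e-05). MCL1, its relative, was at 40.7 to 45.5 FPKM in all 12 libraries, and its interaction of -0.07 (SE 0.044) did not pass the test. TNFSF10, the death ligand TRAIL, rose in both genotypes and more in KO cells, from 3.46, 4.27 and 4.23 to 35.1, 33.9 and 34.4 FPKM there and from 5.03, 5.74 and 5.78 to 22.4, 24.3 and 23.9 in CTRL (interaction 0.92, adjusted p = 2.98e-05). DAPK2, a death-associated kinase, had 3.19, 3.4 and 3.42 FPKM in CTRL OT and 9.23, 9.1 and 10.2 in KO OT libraries (interaction 1.46, adjusted p = 4.35e-06). Over the 22 death receptor, ligand and caspase genes, 3 interactions were higher and 3 lower, near the background.

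Of all lists, replication genes had the lowest median interaction. OT lowered all 45 S-phase and DNA replication genes in both genotypes (40.9% of all genes in CTRL and 41.4% in KO cells), and the fall was deeper in YAP1 KO cells for 43 of them, with none shallower. Over all genes 13.8% had a lower interaction and 13.2% a higher one. The median response of the replication genes was -1.64 in CTRL and -2.19 in KO cells, and the median interaction -0.60. Of the 43, 22 had no call between genotypes under DMSO, 11 were higher and 9 lower in KO cells there with a call under OT, and 1 was higher under DMSO with no call under OT. CDC6, which loads the replicative helicase, was at 27, 28.4 and 29.4 FPKM in CTRL DMSO and 28.8, 29.1 and 30.9 in KO DMSO libraries, overlapping. Under OT it was at 4.82, 5.22 and 4.6 in CTRL and 1.19, 1.25 and 1.31 in KO libraries, 25.6% of the CTRL mean, so the genotypes were apart (interaction -1.45, SE 0.070, limma adjusted p = 1.70e-07).

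RRM2, the small subunit of ribonucleotide reductase, fell to 15.1, 16.3 and 15.1 FPKM in CTRL and 4.77, 4.32 and 4.13 in KO OT libraries, from 61.7, 63.4 and 61.3 in CTRL and 55.6, 54.1 and 54.3 in KO DMSO libraries (interaction -1.43, adjusted p = 8.50e-08). GINS2, a helicase subunit, fell from 62.9, 63.6 and 62.2 to 13, 14 and 14.6 in CTRL and from 65.8, 67.2 and 68.8 to 4.78, 5.97 and 3.74 in KO cells (interaction -1.46, adjusted p = 1.98e-05). CCNE2, a cyclin of the entry into S phase, fell to 2.21, 2.57 and 2.17 in CTRL and 0.483, 0.658 and 0.476 in KO OT libraries (interaction -1.29). For these 3 the KO OT libraries were the lowest of the 12, and no group overlapped them. CDCA7, a chromatin regulator that E2F factors induce, crossed, going from 24, 24.6 and 24.1 to 2.44, 3.1 and 2.8 FPKM in CTRL and from 39.1, 37.3 and 36.8 to 1.08, 0.891 and 0.952 in KO cells (interaction -1.55, adjusted p = 3.87e-07). EXO1, a repair exonuclease, had an interaction of -1.22. Of 25 DNA repair genes, 16 were lower (64%, against 13.8% of all genes) and 2 higher (8%, against 13.2%).

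Mitotic genes had smaller interactions. All 40 G2/M genes fell with OT in both genotypes. A lower interaction was found in 31 (77.5%, against 13.8% of all genes) and a higher one in none (13.2%), with a median of -0.31. CDK1, the mitotic kinase, fell from 166, 161 and 165 to 49.6, 51.1 and 53.6 FPKM in CTRL cells and from 177, 173 and 174 to 34.8, 31.5 and 31.7 in KO cells (interaction -0.73, adjusted p = 3.29e-06). MKI67, the proliferation marker Ki-67, was lower in KO cells by similar amounts in both treatments (-0.25 and -0.26), with an interaction of -0.01 (SE 0.067). The 29 ribosome biogenesis genes fell with OT in both genotypes too, and 13 (44.8%) fell further in KO cells, among them NOP16 (-0.58).

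**Figure D3:**
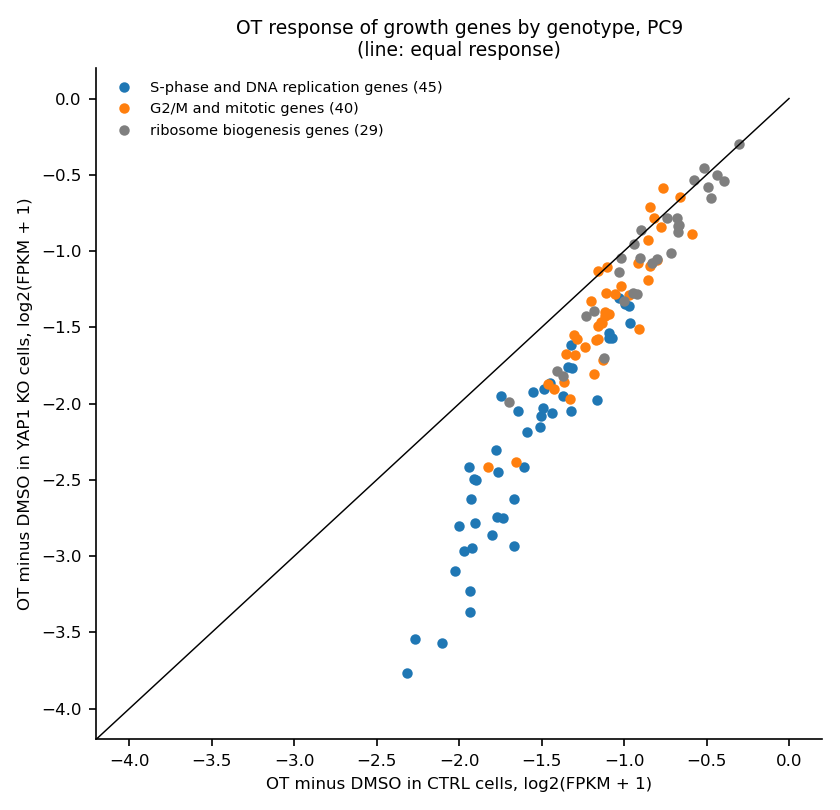
OT response in CTRL cells (x axis) and in YAP1 KO cells (y axis) of 45 S-phase, 40 G2/M and 29 ribosome biogenesis genes, each point 1 gene, in log2(FPKM + 1) differences of means of 3 libraries. S-phase genes lie farthest below the line of equal response, reaching -3.77 in KO cells at CDC6, where CTRL cells had -2.32.

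Of 26 cell cycle inhibitors and quiescence genes, 8 had a higher interaction (30.8%, against 13.2% of all genes) and 4 a lower one (15.4%, against 13.8%). CDKN1B, the inhibitor p27, rose from 26.7, 26.6 and 27.5 to 41.2, 39.4 and 40.1 FPKM in CTRL cells and from 25.3, 25.4 and 25.2 to 57.8, 54.6 and 54.9 in KO cells (interaction 0.55, adjusted p = 4.35e-06). YPEL3, linked to growth arrest, reached 150.4, 152 and 144 in CTRL and 183, 193 and 186 in KO OT libraries (interaction 0.79). CCND1, the cyclin D1 gene, overlapped between genotypes under DMSO (78.9, 81.6 and 74.6 against 79.8, 78 and 81.4 FPKM) and was lower in KO cells under OT (35.2, 31.5 and 32.9 against 18, 15.8 and 15.7), an interaction of -0.99 (SE 0.077, adjusted p = 4.21e-06).

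Feedback and output genes of the MAPK pathway fell with OT in both genotypes, 18 of 19 tested in each, with medians of -1.83 and -2.41. In the interaction 11 were lower (57.9%, against 13.8% of all genes) and 2 higher (10.5%, against 13.2%). These counts depend on the pseudocount: at 0.1 and at 0.01 they were 7 lower and none higher. EPHA2, an ephrin receptor raised by ERK, went from 24.6, 25.8 and 24.8 to 6.23, 6.3 and 6.24 FPKM in CTRL cells and from 17.9, 16.4 and 19.1 to 1.3, 1.29 and 1.39 in KO cells (interaction -1.17, adjusted p = 6.92e-07). PHLDA1, DUSP4 and FOSL1 had interactions of -0.81, -0.73 and -0.64. DUSP6, the ERK phosphatase, was listed at 0, 0.166 and 0.106 FPKM in CTRL OT and 0.122, 0.0624 and 0.122 in KO OT libraries, near 0 in both. Under DMSO it was at 4.68, 4.74 and 5.35 in CTRL and 8.21, 9.32 and 7.96 in KO libraries. The interaction was -0.66, and at a pseudocount of 0.01 0.09 (adjusted p = 0.968). SPRY4 was alike, at 0.0342 FPKM or less in all 6 OT libraries.

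Of 12 ERBB and bypass receptor kinases tested, 2 had a higher interaction (16.7%, against 13.2% of all genes) and 4 a lower one (33.3%, against 13.8%). EGFR was at 17.1, 18.5 and 16.9 FPKM in CTRL DMSO, 18.4, 16.4 and 15.4 in CTRL OT, 16.6, 15.4 and 15 in KO DMSO and 13.6, 12.7 and 14.2 in KO OT libraries, and its interaction of -0.14 (SE 0.092) did not pass the test. AXL, a receptor kinase and YAP/TEAD target, fell with OT in KO cells from 47.9, 46.9 and 48.5 to 29.2, 29.2 and 27.3 FPKM, while CTRL libraries went from 41.1, 38.3 and 38.9 to 37.5, 36.6 and 36.2 (interaction -0.62, adjusted p = 4.93e-06). ERBB3, the partner of ERBB2, reached 26.8, 25.9 and 25.7 in CTRL and 36.3, 36 and 35 in KO OT libraries (interaction 0.53). TGFA, an EGFR ligand, had an interaction of -0.73 and HBEGF, another, -0.69. Of the 6 ligands tested, 2 had a lower interaction (33.3%, against 13.8% of all genes). None had a higher one, which for 6 genes is near the 13.2% of all genes.

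Focal adhesion and actin genes, many of them known YAP1 targets, had lower interactions than most. Of 33 tested, 18 had a lower interaction (54.5%, against 13.8% of all genes) and none a higher one (13.2%), with a median of -0.18. TPM1, a tropomyosin, rose from 75.4, 72.6 and 77.2 to 183, 180.3 and 185 FPKM in CTRL cells and from 91.2, 91.4 and 94.3 to 142, 145 and 136 in KO cells (interaction -0.67, adjusted p = 1.17e-06). ITGA6, a laminin receptor subunit, fell in both genotypes, to 7.25, 7.74 and 7.6 in CTRL and 4.01, 3.62 and 3.72 in KO OT libraries (interaction -1.04). ITGA2, a collagen receptor subunit, fell from 8.02, 7.72 and 6.8 to 1.68, 1.56 and 1.63 FPKM in CTRL and from 22.3, 21.9 and 20.8 to 2.85, 2.5 and 2.56 in KO cells (interaction -0.94), and KO cells were higher in both treatments. In the matrix list 9 of 20 were lower (45%) and 2 higher (10%). MFAP5, a microfibril protein, rose from 9.07, 8.83 and 8.77 to 16.9, 17.5 and 17.6 FPKM in CTRL cells and fell from 6.4, 6.74 and 6.49 to 4.57, 4.12 and 4.2 in KO cells (interaction -1.40, adjusted p = 8.50e-08).

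SNAI2, the transcription factor SLUG of the epithelial to mesenchymal transition, was at 3.95, 4.84 and 4.08 FPKM in CTRL DMSO and 9.48, 8.62 and 9.73 in CTRL OT libraries. KO libraries had 7.79, 7.34 and 8.64 under DMSO and 9.98, 8.21 and 7.51 under OT, so KO cells already held under DMSO a level close to that of CTRL cells under OT. The genotypes overlapped under OT alone, and the interaction was -0.87 (SE 0.134, adjusted p = 6.03e-04). VIM, the filament vimentin, was higher in KO cells in both treatments, and its interaction of -0.62 (adjusted p = 0.0443) kept its call only without KO OT replicate 1 or any 1 CTRL OT library, with adjusted p up to 0.0924 otherwise. ZEB1 was below 0.2 FPKM in all libraries and was not tested. Of 15 EMT genes, 5 were lower (33.3%, against 13.8% of all genes) and 1 higher (6.67%, against 13.2%). Their median of 0.01 took either sign with the scaling.

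Epithelial genes were mostly lower in KO cells under DMSO. Of 28 junction and keratin genes, 10 had a higher interaction (35.7%, against 13.2% of all genes) and 4 a lower one (14.3%, against 13.8%). Under DMSO 19 were lower in KO cells (20% of all genes). ELF3, an epithelial transcription factor, went from 31.3, 31 and 33 to 113, 114 and 125 FPKM in CTRL cells and from 20.9, 21.2 and 21.9 to 148, 147 and 149 in KO cells (interaction 0.88, SE 0.054, adjusted p = 8.24e-07). The groups did not overlap in either treatment and their order reversed. KRT18, a keratin, went the other way (-0.39). Of 10 mucin and secretory genes tested, 6 were higher (60%) and 1 lower (10%). MUC20 went from 26, 28.5 and 27.5 to 199.7, 191 and 182 FPKM in CTRL and from 13.7, 14.9 and 13.5 to 226, 242 and 239.8 in KO cells (interaction 1.22, adjusted p = 4.20e-07). AGR2, a chaperone of mucin folding, went from 36.3, 37.4 and 40.6 to 49.9, 60.5 and 59.6 in CTRL and from 19.3, 22.4 and 21.1 to 58.5, 61.8 and 60.0 in KO cells, and the genotypes overlapped under OT. AQP3, a water and glycerol channel, also reversed its order, going from 4.48, 5.64 and 4.8 to 22.8, 21.9 and 20.3 FPKM in CTRL and from 3.15, 3.21 and 2.79 to 37.6, 40.5 and 40.1 in KO cells (interaction 1.39).

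Antioxidant genes of the NRF2 pathway were lower in KO cells under DMSO and of either direction under OT. Of 23 tested, 18 had a higher interaction (78.3%, against 13.2% of all genes) and none a lower one (13.8%), with a median of 0.27. Under DMSO 21 were lower in KO cells and none higher (20% and 19.8% of all genes). Under OT 8 were lower and 8 higher (25.2% and 28.5% of all genes). AKR1B10, an aldo-keto reductase, fell with OT from 412, 422 and 441 to 312, 316 and 313 FPKM in CTRL cells and rose from 231, 231 and 228 to 327, 326 and 308 in KO cells (interaction 0.91, SE 0.040, adjusted p = 8.50e-08). The genotypes were apart under DMSO and overlapped under OT. AKR1C1, a hydroxysteroid and aldo-keto reductase, rose from 1502, 1519 and 1582 to 2034, 2088 and 2047 FPKM in CTRL and from 997, 1012 and 1024 to 2061, 2126 and 2042 in KO cells (interaction 0.61). AKR1C1 and AKR1C2 are near-identical copies, so their reads may be split between them. HMOX1, heme oxygenase, rose from 11.7, 10.4 and 10.5 to 17.2, 19.1 and 19.4 FPKM in CTRL and from 6.97, 6.57 and 6.6 to 21.1, 22 and 20.2 in KO cells (interaction 0.80, adjusted p = 2.20e-05).

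Cholesterol genes differed between genotypes in both treatments. Of 25 tested, 21 were lower in KO cells under DMSO and 24 under OT (20% and 25.2% of all genes), with medians of -0.77 and -0.94. In the interaction 10 were lower (40% against 13.8% of all genes) and 1 higher (4% against 13.2%). INSIG1, a sensor of sterols, was at 19, 18.1 and 22.7 FPKM in CTRL DMSO, 17.7, 18.2 and 19.8 in CTRL OT, 5.24, 4.21 and 5.52 in KO DMSO and 4.51, 4.3 and 4.42 in KO OT libraries. The genotypes were far apart in each treatment, and the interaction was -0.05 (SE 0.127, adjusted p = 0.805). HMGCS1, an early enzyme of the pathway, likewise missed the threshold (-0.19, adjusted p = 0.0582). ACAT2, which joins acetyl units, fell with OT in KO cells, from 24.1, 24.2 and 25.2 to 17.3, 15.4 and 16.5 FPKM, while CTRL libraries were at 41.1, 38.9 and 44.7 under DMSO and 43.9, 45.4 and 46.2 under OT (interaction -0.67, adjusted p = 4.37e-05).

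Of 20 FOXO targets and insulin signalling genes, 12 had a higher interaction (60%, against 13.2% of all genes). In this list 2 had a lower one (10%, against 13.8%), and the median was 0.32. PIK3IP1, an inhibitor of PI3 kinase, rose from 2.4, 2.93 and 2.61 to 24, 24.5 and 23.4 FPKM in CTRL and from 2.79, 2.56 and 3.18 to 40.4, 40.8 and 42.3 in KO cells (interaction 0.68, adjusted p = 1.66e-04). IRS1, the insulin receptor substrate, was lower (-0.54). Lysosomal genes were higher in 12 of 28 (42.9%, and 8 of 28 with median-of-ratios scaling) and lower in none. CTSA, a protective carboxypeptidase, had 79.9, 79.7 and 79 in CTRL and 129.6, 133 and 139.5 in KO OT libraries (interaction 0.62). DDIT4, an inhibitor of mTOR complex 1, was at 60.1, 60.5 and 70.4 in CTRL OT and 122, 123 and 123 in KO OT libraries, with overlap under DMSO (interaction 1.05, adjusted p = 2.09e-05).

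Of 31 interferon-stimulated genes 6 were higher (19.4%, near the 13.2% of all genes) and none lower (13.8%), IRF1, a transcription factor of the interferon response, among them (0.58). Of 8 antigen presentation genes 3 were higher (37.5%) and none lower, with NLRC5, the class I transactivator, at 0.67. Of 17 NF-kappaB targets 7 were higher (41.2%) and 1 lower (5.88%). RELB, a subunit of the factor, was at 3.79, 3.41 and 3.27 FPKM in CTRL OT and 8.03, 9.21 and 7.63 in KO OT libraries (interaction 0.88). The lower one was IL18 (-0.66). Heat shock genes were lower in 8 of 15 (53.3%) and higher in 1 (6.67%), with HSP90AA1 at -0.45. Glycolysis (4 higher, 6 lower of 23), fatty acid synthesis (4 and 4 of 22) and the stress response list (7 and 5 of 26) showed no common direction. Nuclear genes of oxidative phosphorylation had 1 higher and 5 lower of 29, while median-of-ratios scaling gave 11 lower, so their count rests on the scaling.

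**Figure D4:**
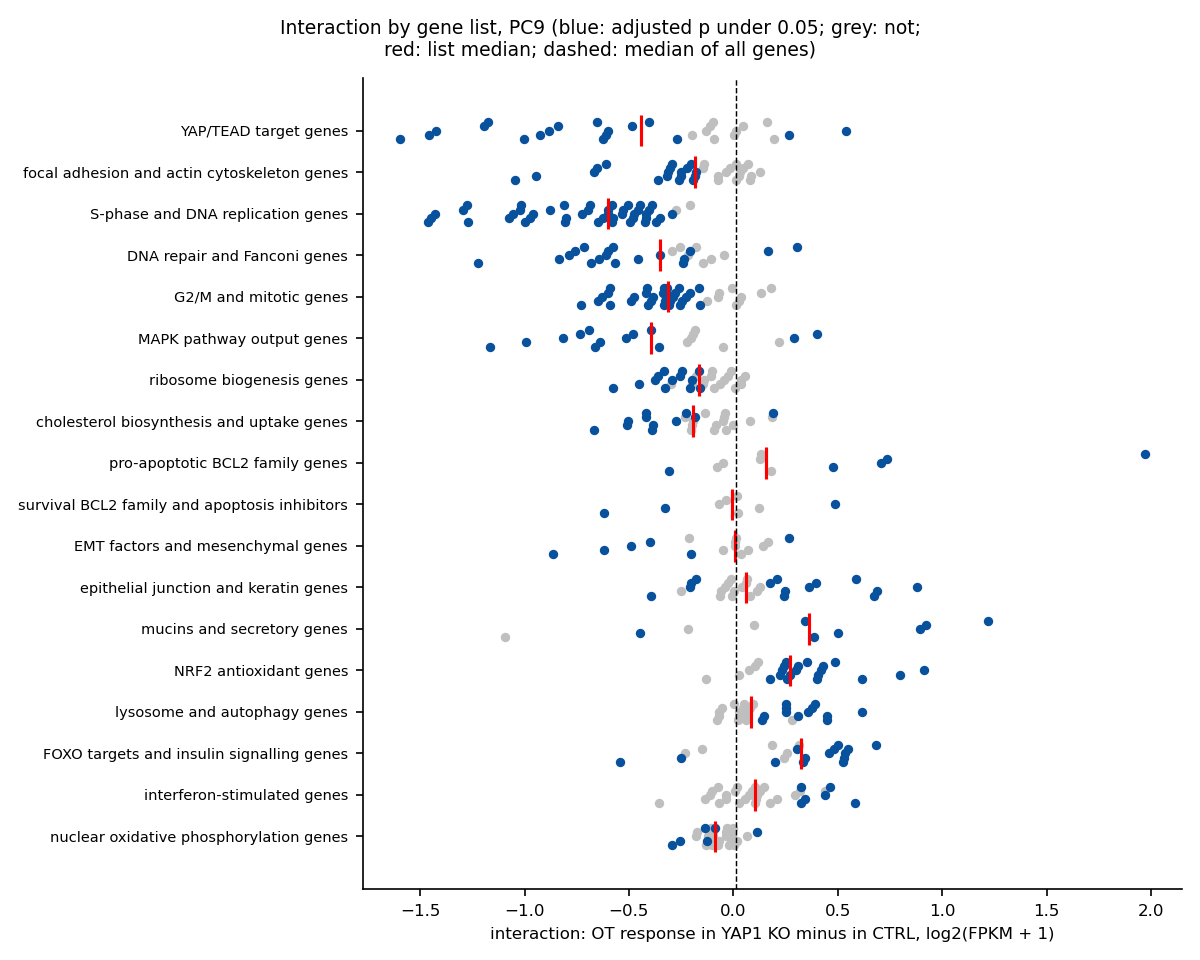
Interaction (x axis, difference of OT responses in log2(FPKM + 1)) of the tested members of 18 gene lists, each point 1 gene, blue where the limma adjusted p was under 0.05, with list medians in red and the median of all genes dashed. S-phase genes lie to the left with a median of -0.60, and NRF2 genes lie to the right with 0.27.

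RRAD, a small GTPase, was at 0.43 FPKM or less in all 6 DMSO libraries and at 3.51, 3.19 and 2.58 in CTRL OT and 14.7, 16.4 and 15.6 in KO OT libraries (interaction 1.66, adjusted p = 3.18e-06), but at a pseudocount of 0.01 the value was -0.74 (adjusted p = 0.622). RARRES2, the adipokine chemerin, rose to 5.36, 6.66 and 5.66 in CTRL OT libraries and stayed at 0.311 or less in all 6 KO libraries (interaction -1.55), and the same change gave 0.51 (adjusted p = 0.791). PTCD1 was listed at 0.0016, 0.0018 and 0.00174 FPKM in KO DMSO libraries and at 1.03 or more in the other 9. BCYRN1 was listed at 0 in all KO OT libraries and at 1.82, 1.42 and 2.29 in KO DMSO libraries.

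The interaction was then set against that of HCC4006, another EGFR-mutant lung adenocarcinoma line, in 1 fit of the 24 libraries over 11845 genes expressed in both. Its groups have the same genotype and treatment labels. The column names of the KO cells carry a different number in each line, whose meaning the sources used here do not give. A difference between the lines and one between their KO populations therefore cannot be told apart. In HCC4006, 1596 genes had a higher interaction (13.5%) and 1224 a lower one (10.3%). Between the lines 1594 interactions differed (13.5%). Tested for a difference beyond 2-fold, 1 gene passed (0.00844%), GPR176. Of the 169 named genes in both lines, 69 differed.

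BMF was higher in both lines, by 1.97 in PC9 and 0.76 in HCC4006, and the lines differed (limma adjusted p = 5.13e-06). For BCL2L11 (0.71 and 0.55), BCL2L1 (-0.62 and -0.71) and TNFSF10 (0.92 and 1.00) a difference between lines was not shown (adjusted p = 0.539, 0.681 and 0.754). YAP/TEAD targets were lower in both lines, 16 of 28 in PC9 (13.8% of all genes) and 21 of 27 in HCC4006 (10.3%). Their medians were -0.44 and -0.72, and 13 differed between lines (13.5% of all genes). The interactions of CTGF and CYR61 were lower in HCC4006 (-2.80 and -2.10) than in PC9, each with a difference that passed the test (adjusted p = 1.30e-05 and 0.00312). AMOTL2, parallel in PC9, had -1.07 in HCC4006 (adjusted p of the difference 1.22e-05).

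The replication genes separated the lines. In PC9 43 of 45 were lower (13.8% of all genes). In HCC4006 12 were lower and 3 higher (10.3% and 13.5% of all genes), with a median of -0.11. Between lines 34 of the 45 differed. CDC6 had -1.45 in PC9 and -0.50 in HCC4006 (adjusted p of the difference 7.24e-06), and GINS2 -1.46 and -0.31 (0.00107). Of 40 mitotic genes, 31 were lower in PC9 and 32 in HCC4006, with medians of -0.31 and -0.52, and 13 differed between lines (13.5% of all genes). For CDK1 (-0.73 and -0.76) a difference was not shown (adjusted p = 0.866). Of the NRF2 list, 18 of 23 were higher in PC9 (13.2% of all genes) and 7 of 22 in HCC4006 (13.5%). HMOX1 had the larger value in HCC4006 (1.74, adjusted p of the difference 5.67e-05).

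**Figure D5:**
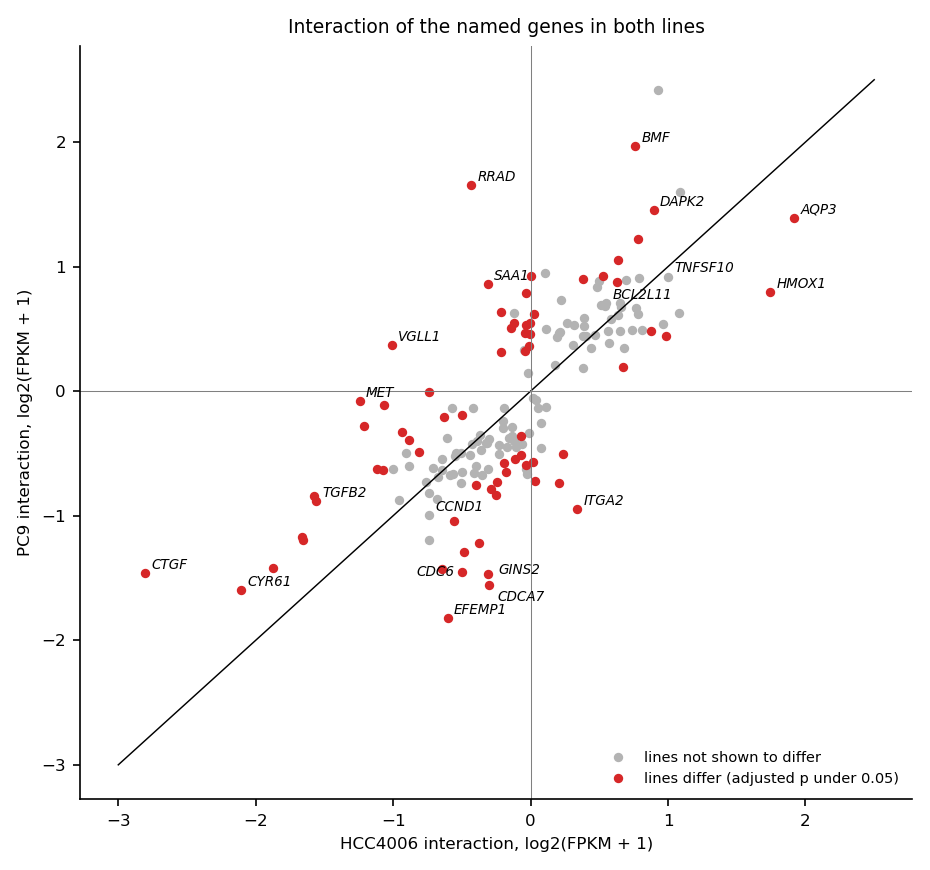
Interaction in HCC4006 (x axis) and PC9 (y axis) of the 169 named genes tested in both lines, each point 1 gene, in log2(FPKM + 1) units with the line of equality, red for the 69 whose lines differed at a limma adjusted p under 0.05. CTGF lies at -2.80 and -1.46, and BMF at 0.76 and 1.97.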

How the data were processed

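The deposited table holds FPKM values per gene row, made by the authors. Per the submitters' processing notes, the builds were hg19 and GRCh37 and the tools included Cufflinks 2.2.1, STAR 2.5.1b and DESeq2 1.10.1. Sources used here do not give the gene annotation. FPKM keeps no read counts, so the number of reads of each library is unknown here. Depth relative to CTRL DMSO replicate 1, estimated from the steps of low values, was 0.959 to 1.21. In each group it was highest in replicate 3. Columns were matched to libraries by the labels' titles. The values were taken as log2(FPKM + 1), which understates changes of low genes, and genes with FPKM of 1 or more in at least 3 PC9 libraries were kept. A model of 4 group means was fitted with limma 3.58.1 in R 4.3.3 (intensity trend), and p-values were adjusted by Benjamini-Hochberg over all genes kept. On simulated data with 200 of 12685 genes changed, 89% were recovered at a log2 interaction of 0.5 and 100% at 1, and 4.06% of calls were unchanged genes. The changed genes were drawn only from those of higher mean level, so the recovery does not cover low genes. The simulated noise was normal and independent between libraries. The named genes are YAP1, the 10 highest and 10 lowest called interactions without short RNA rows, up to 4 called members with the largest interaction from each of 45 lists, and 27 genes given whatever their result. Members and lists were chosen with earlier results of these data known. A few genes of the rule are not reported here. Lists are described by counts, with no set test. The shares over all genes to set beside them are 13.2% higher and 13.8% lower. Alternatives changed the pseudocount, the filter, the scaling, the trend, the fit, a replicate block and the libraries.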

Additional observations from a re-analysis of the deposited data

Results flagged for a closer look

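For 10 named genes the interaction of PC9 differed from that of HCC4006 by more than 2-fold with a limma adjusted p under 0.05 in the fit of both lines. In the lower direction, PC9 minus HCC4006 was -1.28 for ITGA2 (-0.94 and 0.34), -1.25 for CDCA7 (-1.55 and -0.30), -1.22 for EFEMP1 (-1.82 and -0.60) and -1.15 for GINS2 (-1.46 and -0.31). In the higher direction it was 1.17 for MET, the hepatocyte growth factor receptor (-0.08 and -1.24), and 1.17 for SAA1, an acute phase protein (0.86 and -0.31). SAA1 has a near-identical copy, SAA2, so its value is uncertain. BMF had 1.21, with a higher interaction in both lines (1.97 and 0.76). CTGF had 1.35, with a lower interaction in both (-1.46 and -2.80). VGLL1, a TEAD cofactor, had 1.38 (0.37 and -1.01). RRAD had 2.09 (1.66 and -0.43), on values near 0 under DMSO in PC9. None of these 10 passed a test for a difference beyond 2-fold.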

How the results depend on the processing

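At pseudocounts of 0.1 and 0.01 in place of 1, interactions of at least 2-fold rose in number from 35 to 78 and 80 higher genes and from 54 to 117 and 128 lower genes, and the lower MAPK output genes went from 11 to 7 at each. At 0.01 the value of RRAD became -0.74 (limma adjusted p = 0.622), that of RARRES2 0.51 (0.791) and that of DUSP6 0.0868 (0.968); the cause was not tested. Without 1 library in turn, 1388 to 1724 genes were higher and 1460 to 1773 lower, and at least 2-fold 30 to 38 and 48 to 56. Of 180 named genes fitted, 171 were called, and 13 of these lost the call without some 1 library, among them ATP5C1, BBC3, BHLHE40, CD68, CDKN1A, COX5A, CRY1, HIST1H2AC, HSPA4L, SAA2, VIM and YAP1. Under the 2 other scalings, the medians of 5 of 45 lists changed sign, and the median interaction of all genes, 0.014 as reported, was -0.0157 with median-of-ratios scaling and 0.0498 with libraries rescaled to the same sum.

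A pairing of the libraries by the replicate numbers of the labels was not shown. Over 18 same-numbered pairs the correlation of deviations ran from -0.264 to 0.161, and 3 of 12 libraries correlated best with their own number. With 3 libraries in each group these correlations cannot exclude a pairing, and relative depth was highest in replicate 3 of each group. With the replicate number as a block, 1601 genes were higher and 1698 lower, and at least 2-fold 33 and 55; of the named genes, 2 lost and 1 gained a call.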

Other observations

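The following genes and lists were chosen after their values were seen and carry no count as support. Genes of the aryl hydrocarbon receptor, a ligand-activated transcription factor of xenobiotic metabolism, had higher interactions in 5 of 5 tested (13.2% of all genes). CYP1A1, also of this list, was below 1 FPKM in all 12 libraries and was not tested. It went the other way under OT, at 0.63, 0.707 and 0.812 in CTRL and 0.553, 0.572 and 0.519 in KO libraries. CYP1B1, a cytochrome of that pathway, was at 10.4, 11.2 and 11.9 FPKM in CTRL DMSO, 13, 14 and 13.9 in CTRL OT, 9.85, 9.67 and 9.33 in KO DMSO and 33.6, 30.3 and 32.5 in KO OT libraries (interaction 1.37, limma adjusted p = 3.52e-07). The KO OT libraries were the highest, and no other group reached them. AHRR, the repressor of the receptor, went from 0.567, 0.544 and 0.549 to 3.03, 2.7 and 2.79 in CTRL and from 0.787, 0.734 and 0.736 to 7.53, 8.54 and 8.4 in KO cells (interaction 1.08). Of 12 retinoid genes tested, 9 were higher and 1 lower (13.2% and 13.8% of all genes). ALDH1A1, which makes retinoic acid, went from 1.76, 2.39 and 2.51 to 7.69, 7.36 and 7.46 FPKM in CTRL and from 1.17, 1.3 and 1.23 to 12.1, 12.4 and 12.9 in KO cells (interaction 1.18, adjusted p = 1.15e-05). CYP26A1, which degrades it, had an interaction of 1.27.

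GPR176, an orphan receptor, was at 3.49, 3.83 and 3.23 FPKM in CTRL DMSO, 10.1, 8.84 and 8.17 in CTRL OT, 2.88, 2.89 and 2.43 in KO DMSO and 14.3, 14.1 and 14.4 in KO OT libraries of PC9. OT raised it in both genotypes and more in KO cells (interaction 0.89), while the interaction in HCC4006 was -1.26. It alone passed the test for a difference between lines beyond 2-fold (limma adjusted p = 0.0208). Among further members of the replication list, E2F1, the factor of S-phase entry, had an interaction of -1.28 and TYMS, which makes thymidylate, -1.27. KISS1, a secreted peptide precursor, was at 38.5, 46.2 and 40.9 FPKM in KO DMSO against 10.7, 10.3 and 11.5 in CTRL DMSO libraries, and at 14.3, 15.3 and 15.3 against 8.2, 7.54 and 7.88 under OT, higher in KO cells in both treatments (interaction -1.01).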
